A study of Arabidopsis thaliana with 24 samples.

Results

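The genes described here are 10 *Arabidopsis* genes that make or perceive strigolactone, or act on shoot branching downstream of it. They are a list of known genes out of 28775 in the deposited table. No value entered the rule for membership, but the list was drawn up with earlier results of these data known. They are *MAX1* (AT2G26170), *MAX3* (AT2G44990) and *MAX4* (AT4G32810), the receptor gene *D14* (AT3G03990), *MAX2* (AT2G42620), the repressor genes *SMXL6* (AT1G07200), *SMXL7* (AT2G29970) and *SMXL8* (AT2G40130), and the branching genes *BRC1* (AT3G18550) and *BRC2* (AT1G68800). The RNAseq data came from whole shoots of Col-0 wild-type plants and of the mutant *nrt1.13*, a single T-DNA line with an insertion in the fourth exon of *NRT1.13*, a member of the NRT1/PTR family. Plants of both genotypes were grown in hydroponic medium under equal days and nights, with 2 mM KNO3 (normal nitrate) or 0.2 mM KNO3 plus KCl (low nitrate), and were harvested at 16 or 25 days. The labels count these days from germination in places and from sowing in others. Each of the 8 groups had 3 libraries, each from 1 plant, and the groups did not differ in any other treatment.

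Strigolactones are carotenoid-derived hormones that repress the outgrowth of axillary buds. The carotenoid cleavage dioxygenases MAX3 and MAX4 make carlactone, which the cytochrome P450 MAX1 oxidises further. The hormone is bound and cleaved by the α/β-hydrolase D14, which then joins the F-box protein MAX2 to mark SMXL6, SMXL7 and SMXL8 for degradation. These 3 proteins repress transcription, and the TCP transcription factor BRC1, which acts in axillary buds to hold back their growth, is a known output of the pathway. BRC2 is its close relative. Synthesis is best known from roots and stem tissue and is raised by nutrient shortage in many plants, while BRC1 transcripts are found mainly in buds.

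The 24 libraries held 23608279 to 46155689 reads on genes, with a median of 35030938. Values are CPM, the reads of a gene scaled by the authors to the size of the library. Tests were made with limma on log2(CPM + 0.1) for the 15108 genes with at least 2 CPM in all 24 libraries, where 2 CPM stood for 45.5 to 90.8 reads. Genes were called where the *P* value, adjusted over these 15108 genes by the Benjamini-Hochberg (BH) method, was no more than 0.05. As a check of the labels, *NRT1.13* fell by 1.18 on the log2 scale in *nrt1.13* on average over the 4 conditions (SE 0.10, limma with BH adjustment, adjusted *P* = 9.55e-09). The leaf markers *RBCS1A* and *CAB1* together stood at 25730 to 35320 CPM, and the summed root markers *RHD6*, *COBL9*, *EXPA7* and *EXPA18* at no more than 0.287 CPM in any library. The samples were therefore shoots by their markers. In RNA from whole shoots, fewer cells of a type and less RNA per cell cannot be told apart.

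Of the 10 genes, 6 passed the filter of 2 CPM (*MAX1*, *D14*, *MAX2*, *SMXL6*, *SMXL7* and *SMXL8*), and *MAX3*, *MAX4*, *BRC1* and *BRC2* did not reach 2 CPM in any library. Divided by the length of the longest transcript in kb, *D14* had the highest level, 23.1 ± 1.84 CPM per kb (SD, n = 24 libraries). *SMXL7* followed at 14.1 ± 1.12 CPM per kb. *MAX2* stood at 10.6 ± 1.46, *MAX1* at 9.54 ± 2.24 and *SMXL6* at 8.14 ± 0.82 CPM per kb, and these neighbours in the order overlapped in their SD. *SMXL8* had 4.72 ± 0.86 CPM per kb, the lowest level of the repressor genes. The other 4 genes were far lower, with 0.221 ± 0.094 CPM per kb for *MAX4*, 0.060 ± 0.031 for *BRC2*, 0.038 ± 0.032 for *MAX3* and 0.024 ± 0.027 for *BRC1*. The perception genes were thus well measured in these shoots. The synthesis genes *MAX3* and *MAX4* and the bud transcription factor genes *BRC1* and *BRC2* were close to the limit of detection.

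**Figure D1:**
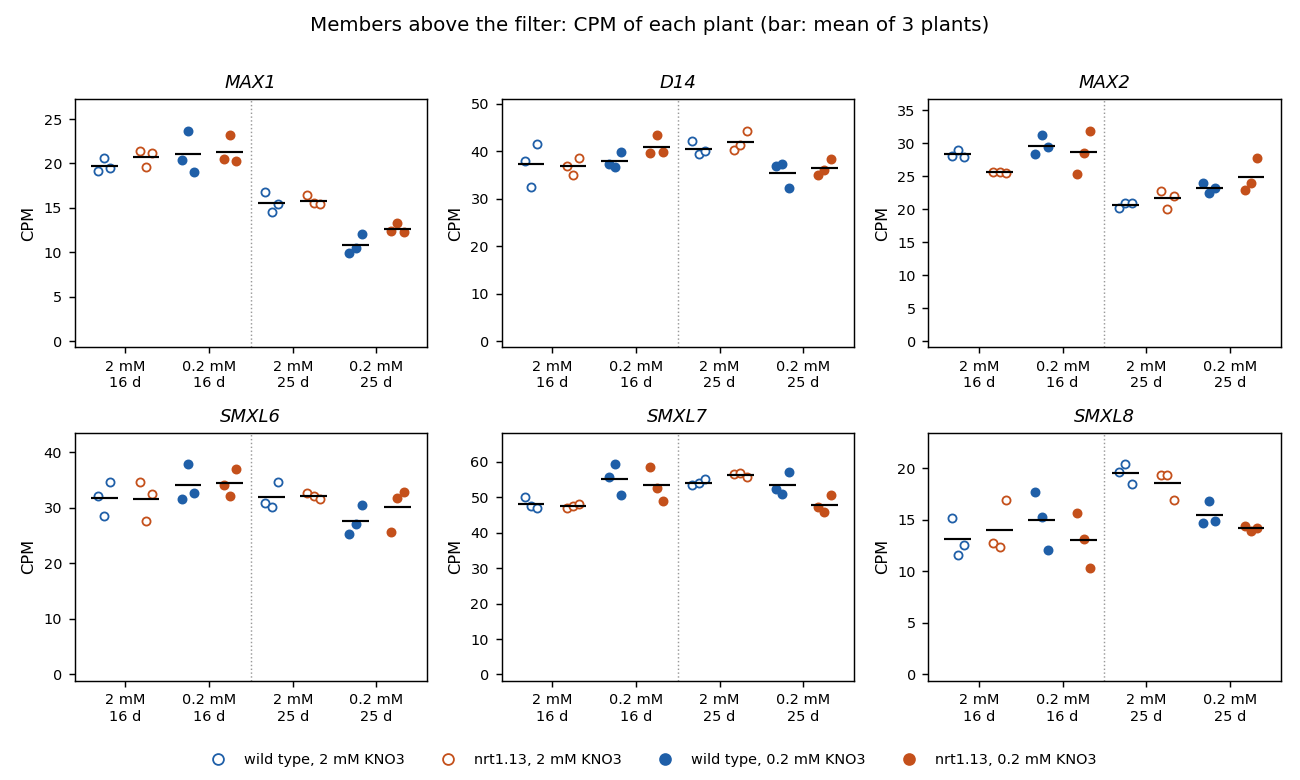
CPM (vertical axes, starting at 0) of *MAX1*, *D14*, *MAX2*, *SMXL6*, *SMXL7* and *SMXL8* in each of the 24 plants, with open points for 2 mM and filled points for 0.2 mM KNO3, blue for wild type, red for *nrt1.13* and a bar at the mean of 3 plants. *MAX1* is lowest at 25 days and 0.2 mM (9.90 to 13.2 CPM), and *SMXL8* is highest at 25 days and 2 mM (16.9 to 20.4 CPM).

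The first question was whether the genes differ between *nrt1.13* and wild type, since the line is studied for its shoot architecture. None of the 6 tested genes was called, either on average over the 4 conditions, where 1.7% of all tested genes were called, or in any single condition. At 16 days the share of all tested genes called was 0.132% with low nitrate and 0.0728% with normal nitrate, and at 25 days it was 0.258% with low nitrate and 0.086% with normal nitrate. At an unadjusted *P* under 0.05, 0 of the 6 genes passed on average, beside 14.4% of all tested genes. With edgeR on the reads recovered from the CPM values, the count of called genes was also 0. The median log2 difference of the 6 genes was 0.01, beside 0.00 over all tested genes.

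The intervals bound the genotype difference in RNA of whole shoots. They do not bound a change confined to a small part of the shoot. On average over the 4 conditions, *MAX1* differed by 0.09 on the log2 scale (95% interval -0.0036 to 0.18) and *D14* by 0.05 (-0.03 to 0.13). *MAX2* differed by -0.01 (-0.09 to 0.07), *SMXL6* by 0.03 (-0.07 to 0.14) and *SMXL7* by -0.04 (-0.11 to 0.03). *SMXL8* had the widest interval, from -0.22 to 0.06 around -0.08. All 6 intervals lay well inside the 1.8-fold change that the study used as its limit. In single conditions the differences with the smallest *P* were at 0.2 mM and 25 days. There, the 3 *nrt1.13* plants had 12.4, 13.2 and 12.3 CPM of *MAX1* and the wild-type plants 9.90, 10.5 and 12.04 CPM, without overlap (log2 difference 0.23, interval 0.05 to 0.41, limma adjusted *P* = 0.564). *SMXL7* had 47.2, 46.0 and 50.5 CPM in *nrt1.13* and 52.3, 50.8 and 57.1 CPM in wild type, again without overlap (log2 difference -0.16, interval -0.29 to -0.02, limma adjusted *P* = 0.691). These were the 2 of the 6 genes with an unadjusted *P* under 0.05 in that condition, beside 6.1% of all tested genes. Plants of the genotypes also stood apart for *SMXL8* there (lower in *nrt1.13*), for *MAX2* at 2 mM and 16 days (lower) and for *SMXL7* at 2 mM and 25 days (higher), all with unadjusted *P* over 0.05. Genotypes without overlap made up 5 of the 24 single comparisons, 3 of 6 genes at 0.2 mM and 25 days, 1 of 6 at 2 mM at each age and 0 of 6 at 0.2 mM and 16 days. Over all tested genes the shares without overlap at 25 days were 7.54% with low nitrate and 15.6% with normal nitrate, and at 16 days they were 12.5% with low nitrate and 15.7% with normal nitrate. The difference of the genotype effect between the supplies was called for none of the 6 genes and for 0% of all tested genes, with 508 of all genes at an unadjusted *P* under 0.05 and 0 called by edgeR. The difference of the genotype effect between the days was called for none of the 6 genes and for 0.0794% of all tested genes, and *MAX2* was the only one of the 6 with an unadjusted *P* under 0.05 (log2 difference 0.18, limma adjusted *P* = 0.946), beside 4.86% of all tested genes.

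**Figure D2:**
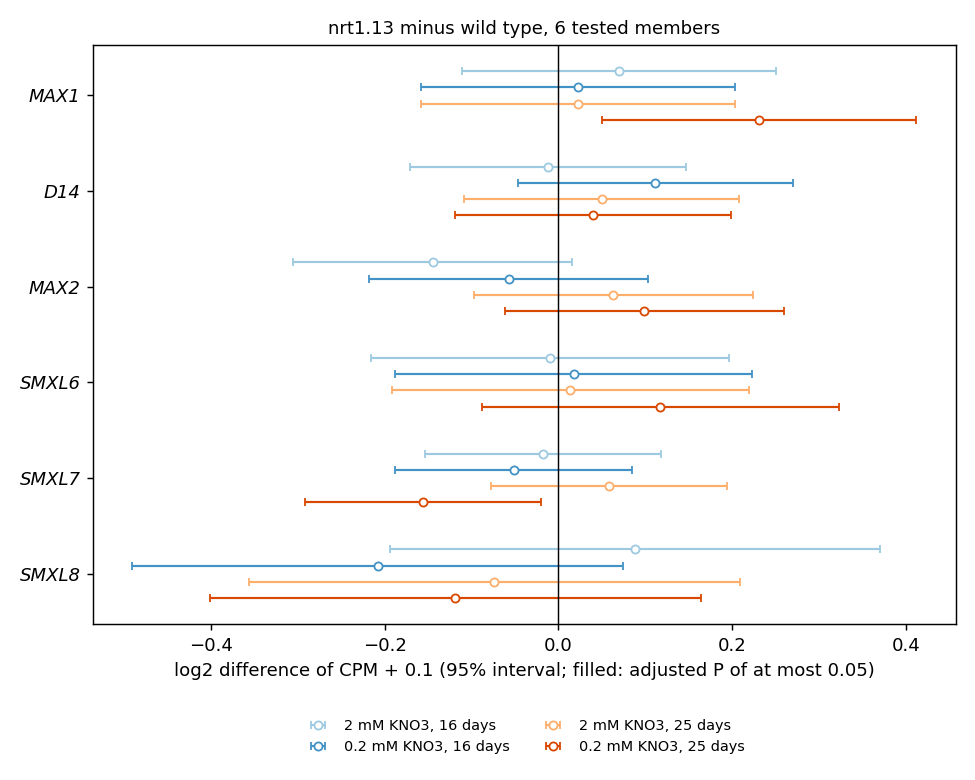
Difference between *nrt1.13* and wild type for the 6 tested genes in each condition, as log2 of CPM + 0.1 (horizontal axis) with 95% intervals, each from 3 plants of either genotype. All 24 points are open, which means that none had an adjusted *P* of at most 0.05, and only those of *MAX1* and *SMXL7* at 0.2 mM and 25 days have intervals that leave out 0.

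The age of the plants was compared next. From 16 to 25 days, 4 of the 6 tested genes were called on average over both genotypes and supplies, 1 higher and 3 lower. This is close to the background, since 62% of all tested genes were called, and 36.7% of all tested genes were called as lower at 25 days. *MAX1*, *MAX2* and *SMXL6* fell and *SMXL8* rose, while *D14* (log2 difference 0.01) and *SMXL7* (0.05) were not called. With edgeR, *SMXL7* was called for day (0.08, adjusted *P* = 0.0284) and *SMXL6* was not. The change with day was then read at each supply, because the effect of nitrate differed between the days for 5 of the 6 genes, beside 47.1% of all tested genes. Groups of 3 plants without overlap were common over all tested genes. Between the days, within a genotype and supply, their share was 30.8% to 58.3%. Between the supplies it was 26.3% and 26.7% at 16 days and 52.8% and 46.1% at 25 days, each in wild type and *nrt1.13*. Shares for 6 plants a side were not computed.

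*MAX1*, the P450 gene that acts on the product of *MAX3* and *MAX4*, fell with day at both supplies and more at low nitrate. At 16 days it stood at 19.2, 20.6 and 19.4 CPM in wild type and 21.4, 19.6 and 21.2 CPM in *nrt1.13* at 2 mM, and at 20.4, 23.7 and 19.1 CPM and 20.5, 23.1 and 20.3 CPM at 0.2 mM. All 12 plants were thus between 19.1 and 23.7 CPM. At 25 days and 2 mM the values were 16.7, 14.5 and 15.4 CPM in wild type and 16.4, 15.5 and 15.4 CPM in *nrt1.13*, below every 16-day plant. At 25 days and 0.2 mM they were lower again, 9.90, 10.5 and 12.04 CPM in wild type and, as given above, 12.3 to 13.2 CPM in *nrt1.13*, below every plant at 2 mM. The fall with day was 0.85 on the log2 scale at 0.2 mM, to 0.555 times the level at 16 days (SE 0.06, limma with BH adjustment, adjusted *P* = 6.78e-12). At 2 mM the log2 difference was -0.37 (SE 0.06, adjusted *P* = 0.000119). At 25 days, *MAX1* was lower at 0.2 mM than at 2 mM by a log2 difference of -0.42 (adjusted *P* = 2.63e-06), and at 16 days the difference was 0.06 (interval -0.07 to 0.19). In wild type at 0.2 mM the log2 difference between the days was -0.95, the only single-condition value of the 6 genes past the 1.8-fold limit. Averaged over both genotypes, the fall of *MAX1* at 0.2 mM also just reached that limit.

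*MAX1* overlaps AT2G26180 on the other strand over 71 exonic bases. The library kit keeps the strand, but the sources used here do not say whether the counting did, and AT2G26180 had a mean of 6.33 CPM. *SMXL8* overlaps AT2G09115 over 156 exonic bases and *BRC2* overlaps AT1G09013 over 260, both also on the other strand, and those loci were not analysed here. No stretch of 50 exonic bases of any of the 10 genes was found elsewhere in the TAIR10.1 genome.

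Perception genes showed smaller changes. *MAX2*, which encodes the F-box protein of the receptor complex, fell with day at both supplies. At 16 days it stood at 28.1, 28.9 and 27.9 CPM in wild type and 25.7, 25.6 and 25.5 CPM in *nrt1.13* at 2 mM, and at 28.4, 31.2 and 29.4 CPM and 25.3, 28.6 and 31.9 CPM at 0.2 mM. At 25 days it stood at 20.2, 20.9 and 20.9 CPM and 22.8, 20.1 and 22.1 CPM at 2 mM, and at 23.9, 22.4 and 23.2 CPM and 23.0, 23.97 and 27.7 CPM at 0.2 mM. At 2 mM the days did not overlap in either genotype, and at 0.2 mM they overlapped in *nrt1.13* through the plant with 27.7 CPM. The log2 difference between the days was -0.35 at 2 mM (SE 0.06, limma adjusted *P* = 5.28e-05) and -0.28 at 0.2 mM (SE 0.06, adjusted *P* = 9.44e-05). *MAX2* was the tested gene that was higher at low nitrate at 25 days, by a log2 difference of 0.18 (adjusted *P* = 0.00738), and the effect of nitrate did not pass as different between the days (log2 difference 0.07, interval -0.09 to 0.23).

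*D14*, the receptor gene, moved in opposite directions at the 2 supplies. At 2 mM it stood at 32.5 to 41.5 CPM (median 37.4) over 6 plants at 16 days and at 39.3 to 44.3 CPM (median 40.7) at 25 days. At 0.2 mM it stood at 36.6 to 43.4 CPM (median 39.7) at 16 days and at 32.3 to 38.3 CPM (median 36.4) at 25 days. The days overlapped at both supplies. The log2 difference between the days was 0.15 at 2 mM (limma adjusted *P* = 0.0453) and -0.13 at 0.2 mM (adjusted *P* = 0.0343). Both calls were marginal. Of 24 repeats of the fit without 1 library each, 11 lost the call at 2 mM (adjusted *P* from 0.0148 to 0.155 over all repeats). The call at 0.2 mM was lost in 5 repeats (0.0187 to 0.115 over all), those without wild type replicate 3 or *nrt1.13* replicate 2 of 16 days, or without wild type replicate 3 or *nrt1.13* replicate 1 or 2 of 25 days, all at 0.2 mM, and with edgeR (adjusted *P* = 0.167). At 25 days all 6 plants at 0.2 mM were below the 6 plants at 2 mM, with a log2 difference of -0.20 (SE 0.05, adjusted *P* = 0.0034), and this call was kept in all 24 repeats.

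The repressor genes were described next. *SMXL8* had its highest group means at 25 days and 2 mM, with 19.6, 20.4 and 18.5 CPM in wild type and 19.4, 19.4 and 16.9 CPM in *nrt1.13*. At 25 days and 0.2 mM it stood at 14.7, 16.8 and 14.8 CPM and at 14.4, 13.9 and 14.2 CPM, and the 12 plants at 16 days stood at 10.3 to 17.7 CPM. All 6 plants at 25 days and 2 mM were above the 6 at 0.2 mM of the same age, with 16.9 against 16.8 CPM at the narrowest, but they overlapped the 16-day plants. *SMXL8* rose with day at 2 mM by 0.50 on the log2 scale, or 1.41-fold (SE 0.10, limma adjusted *P* = 0.000579), and the log2 difference at 0.2 mM was 0.10 (interval -0.10 to 0.30). At 25 days the log2 difference between 0.2 and 2 mM was -0.36 (SE 0.10, adjusted *P* = 0.00288).

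*SMXL7*, the repressor gene with the highest level per kb, was higher at 0.2 mM at 16 days and lower at 25 days. At 16 days it stood at 50.1, 47.6 and 46.9 CPM in wild type and 46.9, 47.6 and 48.2 CPM in *nrt1.13* at 2 mM, and at 55.8, 59.3 and 50.7 CPM and 58.5, 52.5 and 49.1 CPM at 0.2 mM. Within each genotype the supplies did not overlap. At 25 days it stood at 53.5, 53.9 and 55.1 CPM and 56.5, 57.0 and 55.7 CPM at 2 mM, above the 0.2 mM plants of *nrt1.13* but not above those of wild type, whose values are given with the genotypes. The log2 difference between 0.2 and 2 mM was 0.18 at 16 days (SE 0.05, limma adjusted *P* = 0.0108) and -0.13 at 25 days (SE 0.05, adjusted *P* = 0.0224). Within the genotypes the difference at 25 days was -0.24 in *nrt1.13* (adjusted *P* = 0.00583) and -0.02 in wild type (adjusted *P* = 0.827), and the difference between these values was not tested. The averaged call at 25 days was lost without replicate 2 of wild type at 0.2 mM (-0.11, adjusted *P* = 0.0631) and without replicate 2 of *nrt1.13* at 0.2 mM (-0.11, adjusted *P* = 0.0566), and with edgeR on the recovered reads (adjusted *P* = 0.0519). With day, *SMXL7* rose at 2 mM by 0.21 on the log2 scale (adjusted *P* = 0.00242), and the log2 difference at 0.2 mM was -0.10 (adjusted *P* = 0.0623).

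*SMXL6* ranged from 27.7 to 34.7 CPM at 16 days and 30.2 to 34.6 CPM at 25 days over the 6 plants of each age at 2 mM, with a log2 difference of 0.02 (interval -0.13 to 0.16). At 0.2 mM it ranged from 31.6 to 37.9 CPM at 16 days and 25.2 to 32.8 CPM at 25 days. It fell there by 0.25 on the log2 scale (SE 0.07, limma adjusted *P* = 0.00319), and the groups overlapped. Its average call over both supplies (log2 difference -0.12, adjusted *P* = 0.0472) was the weakest of the set. It was lost in 15 of the 24 repeats without 1 library (adjusted *P* from 0.017 to 0.107 over all) and with edgeR (adjusted *P* = 0.148).

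**Figure D3:**
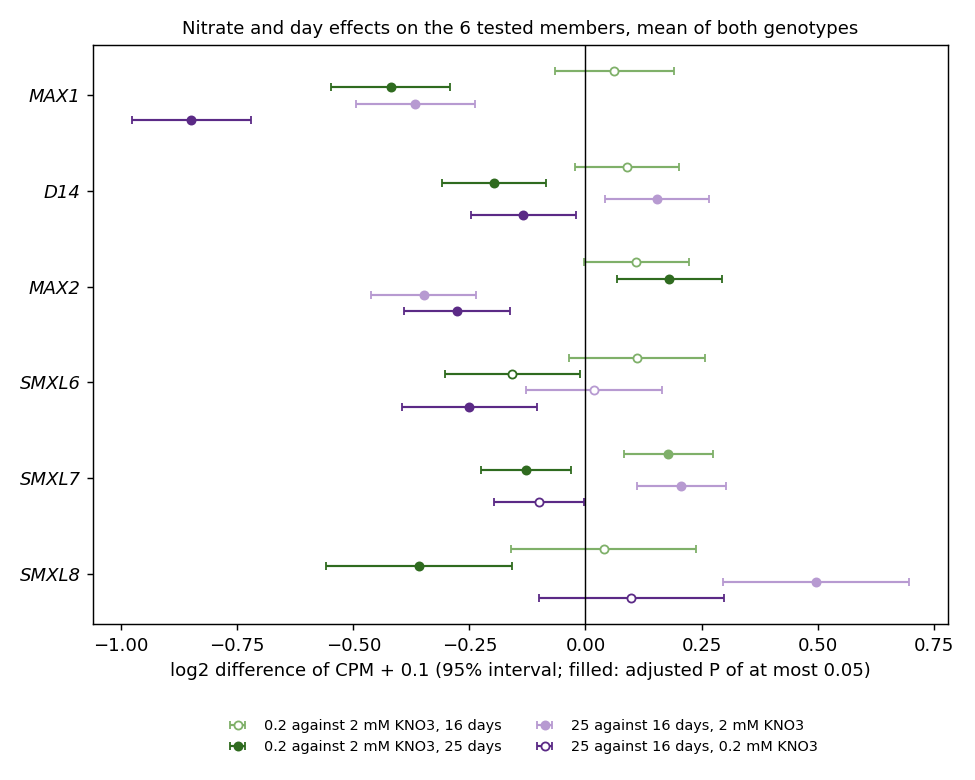
Effects of nitrate at each day (green) and of day at each supply (purple) on the 6 tested genes, as log2 differences of CPM + 0.1 (horizontal axis) with 95% intervals, each averaged over both genotypes with 6 plants a side, and filled points for an adjusted *P* of at most 0.05. For every gene except *MAX2*, the effect of low nitrate at 25 days lies left of that at 16 days, and *MAX1* at 0.2 mM has the largest change with day (-0.85).

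Nitrate was compared on average and at each day. On average over both genotypes and days, *MAX1* was lower at 0.2 mM (log2 difference -0.18, limma adjusted *P* = 0.00188) and *MAX2* was higher (0.15, adjusted *P* = 0.00403), so that 2 of 6 genes were called beside 41.7% of all tested genes. At 16 days only *SMXL7* was called, 1 of 6 beside 18.3% of all tested genes. At 25 days 5 of 6 genes were called, *MAX1*, *D14*, *SMXL7* and *SMXL8* as lower and *MAX2* as higher, beside 54.4% of all tested genes and 27.7% called as lower. *SMXL6* had a log2 difference of -0.16 at 25 days (adjusted *P* = 0.0622). Within wild type 2 of 6 genes were called at 25 days, *MAX1* and *D14*, both lower, beside 39% of all tested genes. The *D14* call (adjusted *P* = 0.0499) was lost in 18 of 24 repeats without 1 library (0.0286 to 0.259 over all). Within *nrt1.13* the 5 genes of the average were called, beside 40% of all tested genes. Of the 24 repeats, 10 lost the call of *MAX2*, 5 that of *SMXL8* and 4 that of *D14*, which was also lost with edgeR. The calls of *MAX1* and *SMXL7* were kept in all 24. The genotypes were not shown to differ in the effect of nitrate, as this effect over both days differed between them for none of the 6 genes. The change with day was called for 4 of 6 genes at 0.2 mM, all lower, beside 65.3% of all tested genes and 37.9% called as lower. At 2 mM it was called for 5 of 6 genes, 3 higher and 2 lower, beside 20.8% of all tested genes.

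The difference between the nitrate effects at 25 and 16 days was tested directly. It was called for 5 of the 6 genes, all more negative at 25 days, beside 47.1% of all tested genes and 25.4% called as more negative. The log2 difference of the effects was -0.48 for *MAX1* (SE 0.09, limma adjusted *P* = 6.7e-05) and -0.40 for *SMXL8* (SE 0.14, adjusted *P* = 0.0194). It was -0.31 for *SMXL7* (SE 0.07, adjusted *P* = 0.00045), -0.29 for *D14* (SE 0.08, adjusted *P* = 0.00336) and -0.27 for *SMXL6* (SE 0.10, adjusted *P* = 0.0295). The call of *SMXL6* was lost in 7 of the 24 repeats without 1 library, with adjusted *P* values of 0.0144 to 0.0687 over all 24, and with edgeR (adjusted *P* = 0.0567). The 7 libraries were replicate 2 of both genotypes at 2 mM and 16 days, wild type replicate 2 and *nrt1.13* replicate 3 at 0.2 mM and 16 days, wild type replicate 3 at 2 mM and 25 days and replicate 1 of both genotypes at 0.2 mM and 25 days. The calls of the other 4 genes were kept in all 24 repeats. The median over the 6 genes was -0.30, beside -0.02 over all tested genes. None of the 6 genes reached a 1.8-fold difference in this comparison, while 503 of all tested genes did with an unadjusted *P* of at most 0.05.

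Markers of tissues moved in the same comparisons. The shoot meristem marker *STM* rose with day on average (log2 difference 0.24, limma adjusted *P* = 0.0199). It rose by 0.49 at 0.2 mM (adjusted *P* = 0.00109), and the log2 difference at 2 mM was -0.01. Its nitrate effect was more positive at 25 days (0.51, adjusted *P* = 0.019). The sum of the 3 meristem markers *STM*, *WUS* and *CLV3* ranged from 7.32 to 9.92 CPM in wild type at 0.2 mM and 25 days, from 4.84 to 6.63 CPM in *nrt1.13* in that condition and from 3.78 to 7.18 CPM in the other 6 groups. This sum is nearly all *STM* (mean 5.60 CPM), since *WUS* and *CLV3* had means of 0.018 CPM and 0 reads in 17 and 20 libraries. *STM* was not called for genotype at 0.2 mM and 25 days (log2 difference -0.49, limma adjusted *P* = 0.469). Nor was it called for genotype on average over the conditions (-0.28, adjusted *P* = 0.113). The leaf marker *RBCS1A* fell with day by 0.18 on the log2 scale (adjusted *P* = 0.00555), and *CAB1* was lower at 0.2 mM on average (-0.17, adjusted *P* = 0.0049) and at 25 days (-0.19, adjusted *P* = 0.02). The nitrate effect of neither leaf marker was called as different between the days (-0.01 for *RBCS1A* and -0.03 for *CAB1*). The summed flower markers *AP1*, *AP3*, *PI*, *AG* and *SEP3* ranged from 2.52 to 9.55 CPM in wild type and from 1.18 to 3.43 CPM in *nrt1.13*. The part of tissue composition in the values of the 6 genes was not tested.

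The remaining 4 genes were measured by few reads. *BRC1* had 0 reads in 9 libraries and 8 at most, 43 in all 24 libraries together. *BRC2*, with 2 to 16 reads a library, had 203 in all. *MAX3* had 0 reads in 7 libraries and 8 at most, 64 in all, and *MAX4* had 4 to 32 reads a library, 389 in all. Counts of 1 to 20 reads were even in 67.6% of cases over all genes, as they are when both reads of a pair are counted, so the pairs behind these values are about 1 for every 2 reads. A count of 0 in a library allows up to 3 pairs, which is 0.132 to 0.264 CPM by library, and these limits and the intervals below cover counting error only.

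*BRC1* ranged from 0 to 0.228 CPM, which was reached by 1 wild-type plant at 2 mM and 25 days with 8 reads. The other 2 plants of that group had 2 reads each, and the next highest value was 6 reads in 1 *nrt1.13* plant at 0.2 mM and 16 days. No group stood apart. The pooled CPM of the 12 *nrt1.13* libraries was 0.623 times that of wild type (95% exact interval 0.225 to 1.60), of 0.2 mM 0.903 times that of 2 mM (0.347 to 2.31) and of 25 days 0.912 times that of 16 days (0.350 to 2.33). These intervals surround the observed ratios and leave out the spread between plants. Changes of *BRC1* inside them were not excluded, and they give no limit of detection.

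*BRC2* had 0.057 to 0.548 CPM. Its pooled ratios were 0.820 for genotype (95% exact interval 0.541 to 1.24), 1.36 for low against normal nitrate (0.901 to 2.06) and 0.771 for 25 against 16 days (0.508 to 1.16). *BRC2* was higher at 0.2 mM in all 4 combinations of genotype and day, yet the plants overlapped in each (two-sided exact permutation test within the 4 combinations, *P* = 0.21).

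The upstream synthesis genes came last. *MAX3* had 0 to 0.206 CPM, with ratios of 0.674 for genotype (95% exact interval 0.303 to 1.44), 1.62 for low nitrate (0.757 to 3.60) and 1.05 for day (0.491 to 2.24). *MAX4* had 0.114 to 0.839 CPM, with ratios of 0.973 (0.726 to 1.30), 1.08 (0.804 to 1.44) and 0.971 (0.725 to 1.30) in the same order. *MAX4* overlaps AT4G32820 on the other strand over 330 exonic bases, and AT4G32820 had a mean of 22.8 CPM, so the few reads counted on *MAX4* cannot be told apart from reads of that gene if the strand was not used. Over these 4 genes and the 3 factors, 12 exact permutation tests were made, and 0 gave a *P* of at most 0.05.

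**Figure D4:**
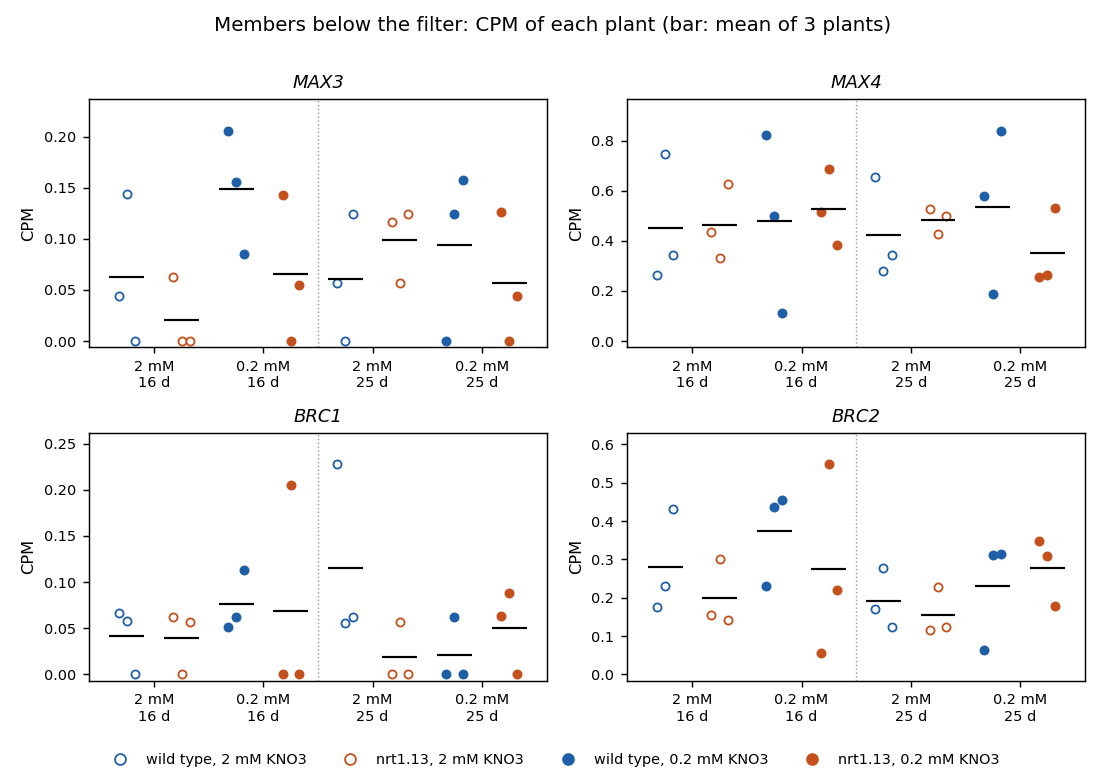
CPM (vertical axes, each with its own scale) of *MAX3*, *MAX4*, *BRC1* and *BRC2* in each of the 24 plants, drawn as in the plot of the 6 tested genes. The plants of all groups overlap, no value reaches 1 CPM, and many *BRC1* and *MAX3* values lie at 0.

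A list of 45 further genes of strigolactone, karrikin and branching control put the set in context, and 31 of them passed the filter. For the genotype, 0 of 31 were called, beside 1.7% of all tested genes. At an unadjusted *P* under 0.05, 4 of 31 passed, beside 14.4% of all tested genes, and the median log2 difference was -0.02. For nitrate, 14 of 31 (45.2%, beside 41.7% of all tested genes) were called, 8 higher and 6 lower at 0.2 mM, with a median of 0.03 beside 0.01 over all tested genes. For day, 21 of 31 (67.7%, beside 62%) were called, 5 higher and 16 lower at 25 days, with a median of -0.08 beside -0.04 over all tested genes. For the difference of the nitrate effects between the days, 16 of 31 (51.6%, beside 47.1%) were called, 6 more positive and 10 more negative. These shares are near those of all tested genes.

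By the rule for naming, the tested genes that fell most with day were *DRM1* (log2 difference -0.72, limma adjusted *P* = 3.44e-10), known for its high transcript level in dormant buds, *PIN7* (-0.68, adjusted *P* = 1.03e-13), an auxin efflux carrier gene, and *NCED3* (-0.63, adjusted *P* = 4.37e-06), which encodes an enzyme of abscisic acid synthesis. The tested genes that rose most were *IPT3* (0.66, adjusted *P* = 1.46e-10), which makes cytokinin, *CCD4* (0.38), a carotenoid cleavage gene, and *AXR1* (0.36), which acts in auxin signalling. At 0.2 mM, *DRM2* (-0.28, adjusted *P* = 0.00465), a relative of *DRM1*, *KAI2* (-0.19, adjusted *P* = 0.000262), the karrikin receptor gene related to *D14*, and *CCD1* (-0.16), another carotenoid cleavage gene, were lowest relative to 2 mM. *NCED3* (0.29), *CCD4* (0.23) and *PIN3* (0.20), another auxin carrier gene, were highest. *NCED3* had few reads for a tested gene, 2.30 to 4.97 CPM by group mean.

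Karrikin perception shares *MAX2* with strigolactone perception. *KAI2* fell with day by 0.84 on the log2 scale at 0.2 mM (limma adjusted *P* = 4.33e-13), and the log2 difference at 2 mM was -0.36 (adjusted *P* = 2.24e-05). Of the 6 karrikin signalling genes listed, 4 passed the filter, and 3 of these were called for day, all lower, beside 36.7% of all tested genes called as lower. AT3G24420, a locus of that list which the annotation used here leaves without a name, was below the filter in 6 libraries and was singled out after its values were seen. Its group means were 5.98 to 7.96 CPM at 16 days, 2.66 and 2.70 CPM at 2 mM and 25 days, and 1.43 CPM in wild type and 1.09 CPM in *nrt1.13* at 0.2 mM and 25 days. In a fit with the filter lowered to a mean of 0.1 CPM, it fell with day by 2.51 on the log2 scale at 0.2 mM (adjusted *P* = 3.94e-14) and by 1.16 at 2 mM (adjusted *P* = 1.22e-06), and its nitrate effect differed between the days by -1.35 (adjusted *P* = 4.74e-06).

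In that fit 12 of the 14 listed genes below the filter were tested, and *D27*, AT3G24420 and *TCP1* were called for nitrate and for day. The share of all genes called in that fit was not computed. In the main fit it was 41.7% for nitrate and 62% for day, so these calls do not set the listed genes apart. *TCP1*, a class II TCP gene like *BRC1* and *BRC2* that was also singled out after its values were seen, went the other way with day. Its 12 plants of 16 days had 0 to 0.144 CPM, all under or within the range of 0.132 to 0.264 CPM that a count of 0 allows by library, and at 25 days the group means were 0.663 and 0.702 CPM at 2 mM and 0.270 and 0.153 CPM at 0.2 mM, each in wild type and *nrt1.13*. *TCP1* passed the lowered filter only through its plants of 25 days, where it was high. Its calls in that fit are therefore no separate support, and its *P* values are not given.

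The known targets of BRC1, *HB21*, *HB40* and *HB53*, were below the filter, with group means of 0 to 0.183 CPM. Of the 3 bud dormancy genes listed, *DRM1* and *DRM2* were tested and fell with day, and for both the difference between the supplies in this fall was called. Over all tested genes 62% were called for day, 36.7% as lower, and 47.1% for that difference. *ASN1*, the other gene of that list, was below the filter. With the filter lowered, its log2 difference with day was 0.10 (limma adjusted *P* = 0.76). *DRM1* fell by 1.06 on the log2 scale at 0.2 mM and by 0.39 at 2 mM (adjusted *P* = 1.07e-10 and 0.0029). *DRM2* fell by 1.01 at 0.2 mM, and at 2 mM the log2 difference was -0.09 (adjusted *P* = 1e-08 and 0.595). Of the other synthesis genes, *D27*, the carotene isomerase gene, had group means of 2.49 to 4.46 CPM and fell short of the filter in 1 library, and *LBO*, an oxidoreductase gene that acts after *MAX1*, had 0.431 to 0.893 CPM.

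**Figure D5:**
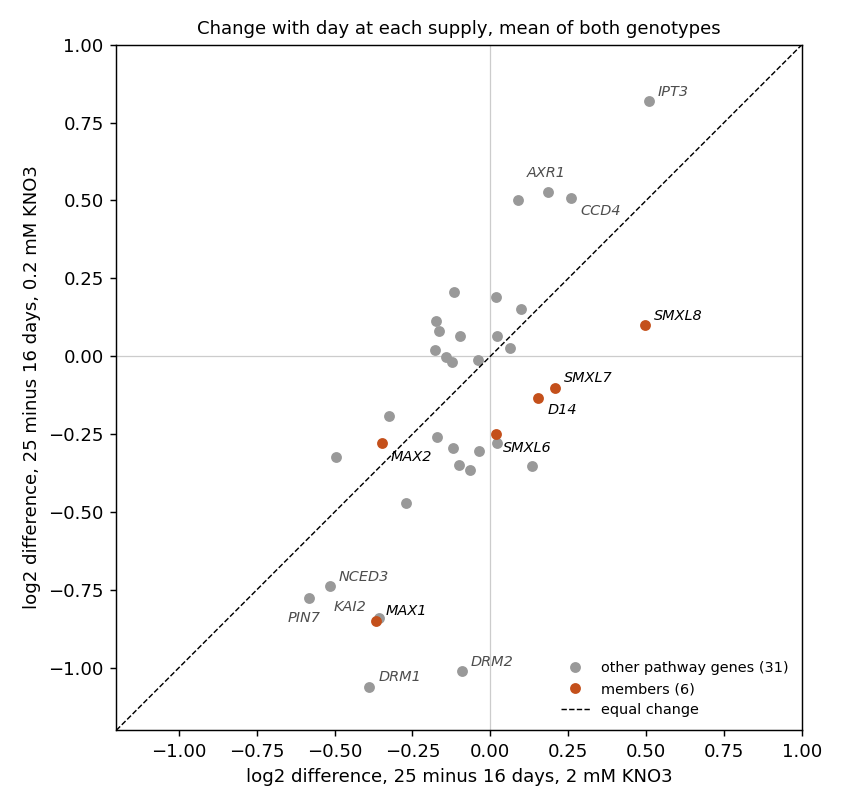
Log2 difference between 25 and 16 days at 2 mM KNO3 (horizontal axis) and at 0.2 mM KNO3 (vertical axis), averaged over both genotypes, for the 6 tested genes (red) and the 31 further pathway genes (grey), with a dashed line of equal change. Of the 6 genes 5 lie below the line, *MAX1* farthest down, and *MAX2* lies just above it. Of the 31 further genes, 14 lie below. The vertical distance from the line is the tested difference of the nitrate effects between the days, called for 47.1% of all tested genes. The share of all tested genes below the line was not computed.

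The genes whose 8 group means were most like those of the 4 genes called on average for nitrate or day are given as a description, since 8 points that share their libraries give high correlations for many genes. For *MAX1* they were AT4G32440, AT1G52510 and AT4G16146, with Pearson's *r* of 0.994, 0.994 and 0.993 over the 8 group means of log2(CPM + 0.1). For *MAX2* they were *ADT4* (0.985), *ABF4* (0.978) and AT1G27410 (0.976). For *SMXL6* they were AT3G52105 (0.987), AT5G54760 (0.980) and *CYP89A5* (0.979), and for *SMXL8* they were *RING1* (0.969), AT1G18740 (0.961) and *URH2* (0.960).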

How the data were processed

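RNA of single-plant shoots was sequenced from 24 libraries in 8 groups of 3, defined by genotype, KNO3 supply and day. Libraries were made with a stranded poly-A kit and sequenced as paired 75-bp reads. The deposited signal values are CPM that the authors made with CLC Genomics Workbench 10 by mapping trimmed reads uniquely to TAIR10 with at most 2 mismatches. The strand setting and the scaling factor are not given in the sources used here. Library sums ran from 968394 to 1038371. All values (100%, within 0.01 of a read) were whole multiples of 1 step per library, so reads were recovered.

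The test used log2(CPM + 0.1) and limma 3.58.1 (R 4.3.3, eBayes with trend) in 1 fit of all 8 group means, restricted to the 15108 genes that no library put below 2 CPM. The pseudocount makes the fold of low genes appear smaller. *P* values were BH adjusted over these genes, and called means at most 0.05. The criteria in the study methods, an FC limit of 1.8 and an unadjusted *P* limit of 0.05, were tried as an alternative. Genes below the filter were tested with two-sided exact permutation tests over 160000 arrangements within strata. A single comparison of 3 against 3 libraries cannot reach an exact *P* below 0.1. Intervals of pooled ratios are exact (Clopper-Pearson) at 95%, on reads divided by 2. Group levels were compared over libraries from single plants.

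Other alternatives were a pseudocount of 1, mean CPM of at least 2 or 0.1, no filter, median-ratio scaling, limma without trend, edgeR 4.0.16 (TMM and quasi-likelihood test) on recovered reads, a replicate block, only the libraries compared, and each library left out in turn. Transcript lengths, overlaps and names came from TAIR10.1, in which all 70 listed loci matched, and no coordinates were used. The fit and the exact test were tested on simulated data. The members, lists and tests were chosen with earlier results of these data known. Named were all 10 genes, up to 3 genes a direction of the pathway list with the largest called change for genotype, nitrate and day, and the 3 genes most like each of the 10 that was called in one of these averages. Genes named outside this rule were chosen after their values were seen.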

Additional observations from a re-analysis of the deposited data

Results flagged for a closer look

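The effect of low nitrate differed between 25 and 16 days for 5 of the 6 tested genes, by a direct test of that difference with limma. Over all tested genes 47.1% were called in this test, 25.4% as more negative at 25 days. The difference of the log2 effects was -0.48 for *MAX1*, -0.29 for *D14*, -0.27 for *SMXL6*, -0.31 for *SMXL7* and -0.40 for *SMXL8*. At 16 days the effects of these 5 genes lay between 0.04 and 0.18, and at 25 days between -0.42 and -0.13. The groups have 3 plants each, so no test for single plants far from their group was made.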

How the results depend on the processing

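With the study's criteria of a 1.8-fold change and an unadjusted *P*, the count of called genes was 0 of 6 for nitrate and 0 for day. It was also 0 for the difference of the nitrate effects between days. None of the 6 genes reached 1.8-fold in these comparisons. Few genes did so at all, as 66 of all 15108 tested genes were called for nitrate, 152 for day and 503 for that difference. Under the other settings the counts, though not in each case the genes, stayed within 1.5 times the values above. Leaving out each library in turn gave 3 to 4 called genes for day, 2 to 3 for nitrate, 4 to 5 for the nitrate difference between days and 0 for genotype and its interactions. In these fits the *MAX2* genotype difference, which was not called, ranged from -0.0304 to 0.0111 and so changed sign. No called value changed sign in any of 1718 recomputed values over 50 results. *SMXL6* for day lost its call under 6 of the other settings, among them median-ratio scaling (adjusted *P* = 0.164), and *D14* for day at 0.2 mM under 3, among them edgeR (adjusted *P* = 0.167).

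The deviations of samples that share a replicate number had a mean *r* of 0.02 over 84 pairs, against -0.01 over 168 pairs with other numbers. An *r* over 0.1 was found in 20 of the 84 pairs and in 25 of the 168. Deviations from a group mean sum to 0, which ties the 2 means together, so they cannot decide whether the numbers pair plants. With a replicate block the counts were 4 for day, 2 for nitrate and 5 for the nitrate difference between days, and 0 for genotype. Depth limits *BRC1*, *BRC2*, *MAX3* and *MAX4* most, since at 2 CPM or less a library holds few pairs.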
